A study of Mus musculus with 10 samples.

Results

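The genes described here encode the machinery that releases synaptic vesicles. They are 43 genes of 13 families or partners, taken as a list of gene symbols: the synapsins Syn1 to Syn3, 13 synaptotagmins, the SV2 proteins, the SNAREs Snap25, Snap23, Stx1a, Vamp1 and Vamp2, the complexins, Napa, Napb and Nsf, the Munc13 genes Unc13a to Unc13c, the RIM genes Rims1 to Rims4, Doc2a and Doc2b, Cadps and Cadps2, and Bsn and Pclo. All 43 were found among the 32531 gene symbols of each count table, and all 43 had enough reads to be measured. A second list of other vesicle release and recycling genes held 99 symbols in the tables and serves as the wider pathway.

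RNA came from whole striatum of Chat-TRAP mice, line DW167, which carry EGFP fused to the ribosomal protein Rpl10a. In this design the tag labels ribosomes of cholinergic neurons, and EGFP antibodies pull down the tagged polysomes with their RNA (the immunopurified libraries). All mice carried the transgene. One group self-administered cocaine, another self-administered saline and the third was the yoked control. Each gave 3 immunopurified libraries, and 1 input library of total RNA came from saline self-administration animals. The labels give the mice as adult but do not state what the yoked animals received, the cocaine dose or schedule, or whether animals were pooled, so the tests measure only the spread between libraries. The saline libraries were run on lane 3, the cocaine and yoked libraries on lane 4 and the input on lane 5, so lane cannot be told apart from saline against the other treatments, or from input against immunopurified RNA.

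A synaptic vesicle is held near the active zone by scaffolds, primed by Munc13 and RIM proteins, and fused with the plasma membrane by a SNARE complex of VAMP on the vesicle and syntaxin and SNAP-25 on the membrane. Synaptotagmins sense calcium and complexins clamp and assist the SNAREs, and after fusion the SNARE complex is taken apart by the ATPase NSF with its SNAP adaptors. Most of these proteins come from small gene families, and neuron types differ in which copy they use. Striatal cholinergic interneurons fire tonically and release acetylcholine throughout the striatum.

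Gene counts per immunopurified library ranged from 24526800 to 75220900, and the input held 40912200. Levels are read counts scaled to the gene counts of the library (CPM), which are not divided by transcript length, so CPM values of different genes cannot be ranked against each other. All 11 cholinergic markers (Chat, Slc18a3 and others) were at least 2-fold above input in each of the 3 saline libraries, with a median log2 ratio of 5.31. Against that, 11 markers of spiny projection neurons had a median log2 ratio of -3.00, 6 of cortical glutamatergic neurons one of -4.39 and 7 of astrocytes one of -3.17. The medians were -3.20 for other interneurons, -3.39 for oligodendrocytes, -3.88 for their precursors, -3.77 for microglia and -3.65 for endothelial and mural cells. The precursor marker Pdgfra went the other way, at 61.1, 54.3 and 68.5 CPM in the saline libraries against 24.0 CPM in the input. So did the interneuron marker Th, at 5.27, 7.32 and 8.50 CPM against 3.62 CPM. Spiny markers summed to 2030, 1202 and 1143 CPM in saline libraries 1 to 3, to between 1207 and 1909 CPM in the cocaine libraries, to between 1391 and 1725 CPM in the yoked libraries and to 7994 CPM in the input; none was at 0 in any library. In bulk RNA, fewer cells of a type and less RNA per cell cannot be told apart.

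The libraries numbered 2 stood apart, and cocaine library 2 did so for the release genes. Cocaine library 2 was the deepest, with 75220900 gene counts. The 43 genes took 4.76% of its gene counts, against 2.26% to 3.23% in the other 8 immunopurified libraries and 1.90% in the input. It was the highest of the 9 libraries for 14 of the 43 genes (32.6%, beside 19.3% of all 14989 genes tested), and at least 1.5 times the next highest library for 6 of them, Syn1, Syn3, Snap25, Cplx1, Cplx2 and Pclo, which is 14.0% of the list against 4.35% of all genes. Saline library 2 was the highest library for 11 of the 43 genes (25.6%, beside 20.3% of all genes) and yoked library 2 for 6 (14.0%, beside 20.8%). Results that rest on cocaine library 2 are given with and without it.

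The comparison of immunopurified RNA with input asks which copies of the release machinery the cholinergic ribosomes carried. Its measure is the log2 ratio of CPM in each saline immunopurified library to the 1 input library, given as mean ± SD over 3 libraries. The input had no replicate, so no test was made, and a gene was called higher or lower when all 3 ratios passed 2-fold in 1 direction. Of the 43 genes, 4 were higher (Syt13, Vamp2, Rims3 and Sv2c), 11 were lower (Syn2, Syn3, Syt2, Syt6, Syt10, Stx1a, Unc13c, Rims2, Cplx3, Sv2b and Pclo) and 28 were neither. The higher genes were 9.3% of the list, against 12.2% of all 15888 genes measured, and the lower genes were 25.6% of the list, against 23.1% of all. The median log2 ratio was -0.12 for the list and -0.20 for all measured genes. The list as a whole therefore lay close to the background, while its single genes spanned log2 ratios from -4.41 for Cplx3 to 2.42 for Rims3.

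**Figure D1:**
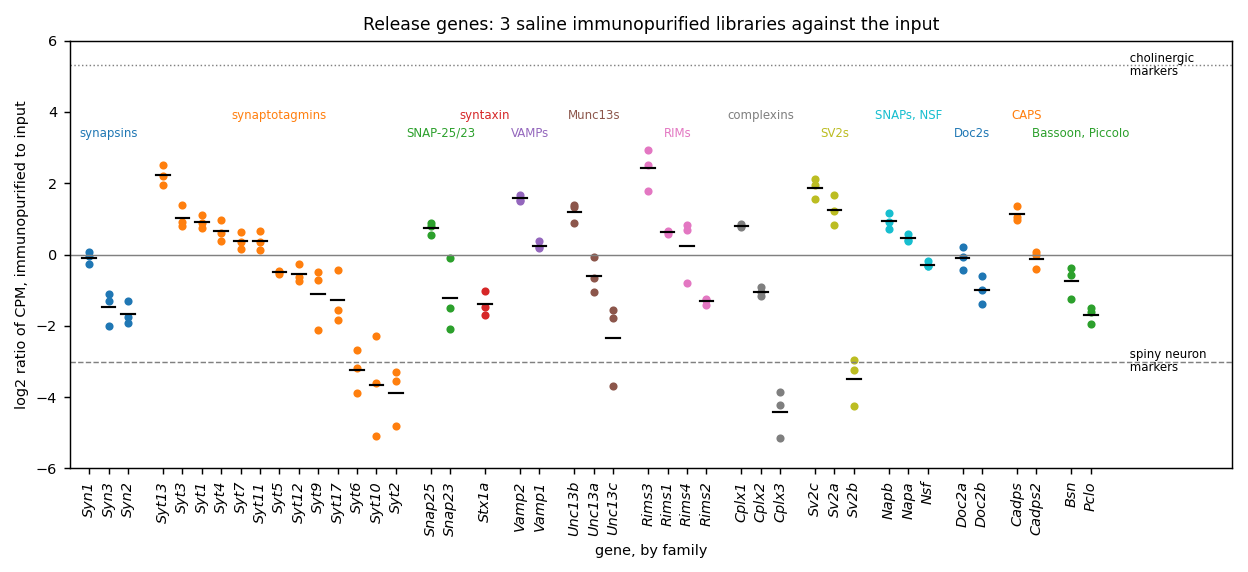
Log2 ratio of CPM to input for each of the 43 genes, grouped by family along the horizontal axis. Points are the 3 saline immunopurified libraries, black bars their mean, and the grey lines mark 0 and the median ratios of the cholinergic markers (5.31) and the spiny neuron markers (-3.00); within the SV2, complexin, Munc13, RIM and synaptotagmin families the members spread on both sides of 0.

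Within families, the highest and the lowest member differed by at least 2-fold in all 3 saline libraries in 8 of the 12 groups with 2 or more genes: synapsins, synaptotagmins, VAMPs, Munc13s, RIMs, complexins, SV2s, and the SNAPs with NSF, which are partners and not copies of each other. The pairs were picked by their values in these libraries, so the differences are a description. The difference between 2 ratios is free of transcript length. In the same libraries the highest member of each family stood above the lowest by log2 values from 0.90 for Doc2a over Doc2b to 6.11 for Syt13 over Syt2. Over all 9 immunopurified libraries the 2-fold gap held in every library in 6 of the 12 groups, with or without cocaine library 2; the VAMPs and the SNAPs with NSF no longer passed.

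Promoter windows are shown for 2 such pairs, Cplx1 with Cplx3 and Unc13b with Unc13c. Among the pairs with exactly 1 window for each member, these had the largest differences between highest and lowest. In both pairs the members lay on opposite sides of the input level. Each line is 300 bases of RefSeq sequence on assembly GRCm38.p6, from 250 bases before to 50 after an annotated start, 5′ to 3′ on the gene's own strand, with each CG dinucleotide in capitals. They lie at chr5:108549978-108550277 on the minus strand (Cplx1), chr9:57606232-57606531 on the minus strand (Cplx3), chr4:43058703-43059002 on the plus strand (Unc13b) and chr9:73968988-73969287 on the minus strand (Unc13c).
Cplx1: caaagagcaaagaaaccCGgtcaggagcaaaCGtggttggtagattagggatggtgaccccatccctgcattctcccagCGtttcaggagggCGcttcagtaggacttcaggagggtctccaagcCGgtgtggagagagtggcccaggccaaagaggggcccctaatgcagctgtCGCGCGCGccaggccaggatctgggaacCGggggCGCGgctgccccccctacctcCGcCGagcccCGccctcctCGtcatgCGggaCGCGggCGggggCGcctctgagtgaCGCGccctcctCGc
Cplx3: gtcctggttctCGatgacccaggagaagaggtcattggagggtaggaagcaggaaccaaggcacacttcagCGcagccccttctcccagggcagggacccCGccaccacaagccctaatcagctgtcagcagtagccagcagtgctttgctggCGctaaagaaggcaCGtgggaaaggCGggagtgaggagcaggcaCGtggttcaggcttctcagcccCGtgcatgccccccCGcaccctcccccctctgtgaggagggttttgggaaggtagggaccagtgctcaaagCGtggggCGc
Unc13b: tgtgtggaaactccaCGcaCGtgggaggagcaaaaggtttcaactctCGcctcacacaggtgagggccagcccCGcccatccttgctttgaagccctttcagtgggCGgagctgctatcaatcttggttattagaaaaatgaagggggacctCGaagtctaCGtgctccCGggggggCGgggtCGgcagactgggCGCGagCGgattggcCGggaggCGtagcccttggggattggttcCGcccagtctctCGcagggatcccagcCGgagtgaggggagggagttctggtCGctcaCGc
Unc13c: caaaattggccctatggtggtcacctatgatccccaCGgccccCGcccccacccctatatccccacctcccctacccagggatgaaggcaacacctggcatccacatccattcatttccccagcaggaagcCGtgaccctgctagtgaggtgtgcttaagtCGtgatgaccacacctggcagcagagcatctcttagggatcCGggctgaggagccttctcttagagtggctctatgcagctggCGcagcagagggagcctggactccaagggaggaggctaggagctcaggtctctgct
The motif searched was CG, which reads the same on both strands. The windows hold 24 CGs for Cplx1 and 11 for Cplx3, and 20 for Unc13b and 6 for Unc13c. Among 32851 windows of all genes 94.6% hold at least 1 CG and the median is 7; as many as in Cplx1 or more were held by 19.98% and as many as in Unc13c or more by 56.4%. A window was found for 30 of the 43 genes, with a median of 19 CGs over their 38 windows. The count did not separate the calls: the 2 higher genes with a window had 11 (Rims3) and 32 (Sv2c), and the 9 lower genes ranged from 0 to 35.

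Among proteins of the vesicle membrane, the SV2 family had a different makeup in the immunopurified RNA from that in the input. Sv2c, the SV2 form known from the basal ganglia, was at 466, 685 and 619 CPM in saline libraries 1 to 3 and at 159 CPM in the input (log2 ratio 1.87 ± 0.29). Sv2b, the form prominent in cortical and many other forebrain neurons, was at 45.3, 37.7 and 18.6 CPM in the same libraries and at 355 CPM in the input, a log2 ratio of -3.49 ± 0.68. Each Sv2c value exceeded the input and each Sv2b value lay under it, with no overlap. Sv2a, the widely expressed form that binds the antiepileptic levetiracetam, had a log2 ratio of 1.24 ± 0.42 and was above input in all 9 immunopurified libraries. Of all reads of the 3 SV2 genes, Sv2b took 49.96% in the input and 3.252 ± 1.82% (SD, n = 3) in saline immunopurified RNA, while Sv2c took 22.4% and 53.9 ± 2.9%, and Sv2a 27.6% and 42.9 ± 3.1%. Read shares depend on transcript lengths, but a shift of a share between libraries does not come from length alone. The Sv2b share stayed between 1.70% and 5.25% in all 9 libraries, cocaine and yoked included.

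Sv2b in the 3 saline libraries fell in the same order as the summed spiny markers, 2030, 1202 and 1143 CPM. In the other groups the orders differed. With cocaine Sv2b was at 45.9, 35.4 and 26.1 CPM, beside spiny sums of 1909, 1207 and 1581 CPM. In the yoked libraries Sv2b was at 34.8, 30.2 and 31.2 CPM, beside 1702, 1391 and 1725 CPM. The share of carried-over RNA in its level was not tested. For comparison, its log2 ratio lay between the medians of the spiny (-3.00) and cortical glutamatergic (-4.39) markers.

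The synapsins coat vesicles and tie them into the reserve pool. Syn1 was at 360, 451 and 419 CPM in the saline libraries and at 433 CPM in the input, so that its libraries lay on both sides of the input (log2 ratio -0.09 ± 0.17). Syn2 was at 108, 79.6 and 70.2 CPM against 268 CPM, a log2 ratio of -1.66 ± 0.32, and stayed below input in all 9 libraries. For Syn3 the values were 48.3, 25.9 and 42.2 CPM against 104 CPM (log2 ratio -1.47 ± 0.47). Of the synapsin reads, Syn1 took 53.8% in the input and 76.5 ± 6.0% in the saline libraries. The annotation places Timp1 and Araf over Syn1, Timp4 over Syn2, and Timp3 and Fbxo7 over Syn3. The strand setting of the counts is not given in the sources used here, so reads of these overlapping genes could be mixed in. The same limit applies to Bsn, Cadps2, Doc2a, Sv2b, Syt1, Syt3, Syt12, Unc13a and Unc13b, which other counted genes also overlap (Ino80e for Doc2a and Fam214b for Unc13b).

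Of the 13 synaptotagmins, 1 was higher, 3 were lower and 9 were neither. Syt13, an atypical member that does not bind calcium, was at 227, 335 and 274 CPM in the saline libraries against 59.0 CPM in the input, a log2 ratio of 2.22 ± 0.28; all 9 immunopurified libraries lay between 225 and 335 CPM. Syt2, a fast calcium sensor used at many hindbrain and inhibitory synapses, was at 1.21, 2.93 and 3.47 CPM against 34.2 CPM, a log2 ratio of -3.89 ± 0.82. Its saline libraries, on 31, 92 and 146 counts, were ordered the other way from the spiny markers. With cocaine Syt2 was at 5.10, 2.59 and 5.26 CPM, beside spiny sums of 1909, 1207 and 1581 CPM. In the yoked libraries it was at 3.87, 2.44 and 3.53 CPM, beside 1702, 1391 and 1725 CPM. In these groups library 2 was the lowest for both. The part of other cells in the Syt2 level was not tested.

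Syt1, the main fast calcium sensor of the forebrain, was at 2014, 2570 and 2192 CPM against 1195 CPM in the input (log2 ratio 0.91 ± 0.18) and took 46.0% of the synaptotagmin reads in the input and 58.5 ± 1.2% in the saline libraries. The third fast sensor, Syt9, had a log2 ratio of -1.12 ± 0.88, with saline library 2 far below the other two. Among slower, high-affinity sensors, Syt3 had a log2 ratio of 1.02 ± 0.31 and Syt7 one of 0.38 ± 0.24, both above input in all 9 libraries.

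Syt6 and Syt10, relatives of Syt3, went the other way, at log2 ratios of -3.25 ± 0.60 and -3.66 ± 1.41. Syt10 was at 1.13, 2.83 and 0.404 CPM, on 29, 89 and 17 counts, against 13.7 CPM in the input; its mean log2 ratio was -4.34 without saline library 2 and -2.94 without saline library 3. Syt6 was at 52.8, 37.2 and 22.9 CPM against 339 CPM. Its share of synaptotagmin reads was 13.0% in the input and 1.002 ± 0.50% in the saline libraries. The 3 saline CPM values also fell in the order of the spiny markers. So did the cocaine values, 51.0, 21.6 and 30.6 CPM beside spiny sums of 1909, 1207 and 1581 CPM. The yoked values, 44.1, 52.4 and 30.4 CPM, ran in the reverse order of 1702, 1391 and 1725 CPM. The part of other cells in these levels was not tested. Syt4 (0.65 ± 0.31) and Syt11 (0.37 ± 0.26), members that do not sense calcium, were above input in all 9 libraries. The remaining log2 ratios were -0.49 ± 0.05 for Syt5, -0.56 ± 0.25 for Syt12 and -1.28 ± 0.74 for Syt17. The Doc2 proteins, soluble calcium sensors linked to spontaneous and asynchronous release, had log2 ratios of -0.10 ± 0.33 (Doc2a) and -1.004 ± 0.40 (Doc2b). Doc2a was at 5.08, 3.98 and 6.25 CPM against 5.38 CPM in the input, and its libraries lay on both sides of it; Doc2b was at 46.9, 35.7 and 62.1 CPM against 94.3 CPM.

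Of the SNAREs, Vamp2, the vesicle SNARE of most forebrain synapses, was at 6868, 6147 and 6214 CPM in the saline libraries against 2153 CPM in the input (log2 ratio 1.57 ± 0.09). Vamp1 was at 77.6, 87.3 and 76.4 CPM against 67.6 CPM (0.25 ± 0.10), so the 2 copies differed by 1.32 ± 0.17 on the log2 scale. Snap25, the membrane SNARE cut by botulinum toxin A, was at 12189, 13101 and 10301 CPM against 7061 CPM, above the input in each library, a log2 ratio of 0.74 ± 0.18. Its widely expressed relative Snap23 was at 4.49, 11.8 and 2.97 CPM against 12.7 CPM; saline library 2 reached almost the input level and the other two did not (-1.23 ± 1.02). Stx1a, 1 of the 2 neuronal syntaxin-1 genes, was at 13.6, 18.6 and 11.5 CPM against 37.5 CPM, all below input, a log2 ratio of -1.40 ± 0.35. Vamp2 and Snap25 thus lay above the input in every saline library and Stx1a below it.

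Complexins bind the assembled SNARE complex. Cplx1 was at 858, 893 and 845 CPM against 492 CPM, a log2 ratio of 0.81 ± 0.04, with all 9 libraries above input. Cplx2, the form typical of excitatory forebrain neurons, had a log2 ratio of -1.04 ± 0.13. Of the complexin reads, Cplx1 took 24.5% in the input and 54.1 ± 2.7% in the saline libraries, and Cplx2 75.1% and 45.9 ± 2.7%. Cplx3, known from ribbon synapses of the retina, was at 0.430, 0.223 and 0.546 CPM against 7.97 CPM (95% Poisson interval 7.13 to 8.88), the lowest ratio of the 43 genes at -4.41 ± 0.67; it had no count in yoked library 2, which allows up to 3 counts. The genes that take the SNARE complex apart were called neither higher nor lower: Napb, the brain form of the SNAP adaptor, was at 1542, 1813 and 1326 CPM against 813 CPM (0.93 ± 0.23), Napa had a log2 ratio of 0.46 ± 0.10, and Nsf, at 538, 595 and 540 CPM against 677 CPM, one of -0.28 ± 0.08. All 3 saline libraries lay above input for both adaptors and below it for Nsf.

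Munc13 proteins open syntaxin and make vesicles fusion competent. Unc13b (Munc13-2) was at 35.3, 25.6 and 36.5 CPM in the saline libraries against 13.9 CPM in the input (log2 ratio 1.21 ± 0.28), and Unc13c (Munc13-3), best known from the cerebellum, at 47.8, 10.9 and 40.6 CPM against 141 CPM (-2.34 ± 1.17). Saline library 2 was the lowest of the 9 libraries for Unc13c, and without it the mean log2 ratio was -1.68. Unc13a (Munc13-1), the main form at excitatory forebrain synapses, was at 64.4, 127 and 84.0 CPM against 133 CPM (-0.59 ± 0.49). Unc13b took 4.83% of the Munc13 reads in the input and 20.7 ± 4.4% in the saline libraries, Unc13c 48.9% and 21.4 ± 13.3%. The CAPS proteins prime dense-core vesicles. Cadps was at 409, 530 and 430 CPM against 207 CPM (1.13 ± 0.20) and Cadps2 at 48.9, 46.5 and 35.1 CPM against 46.7 CPM (-0.12 ± 0.26), so Cadps lay above input in each library and Cadps2 on both sides of it.

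RIM proteins link calcium channels, Rab3 and Munc13 at the active zone. Rims3, which encodes a short RIM without the Rab3- and Munc13-binding part, was at 26.1, 58.5 and 43.6 CPM against 7.60 CPM in the input (95% Poisson interval 6.78 to 8.50), the highest ratio of the 43 genes at 2.42 ± 0.59. Rims2 was at 89.3, 90.3 and 80.0 CPM against 214 CPM (-1.31 ± 0.10) and Rims1 had a log2 ratio of 0.63 ± 0.05; these 2 genes encode the long RIMs, and their ratios varied little between libraries. Of the RIM reads, Rims2 took 67.0% in the input and 30.9 ± 2.0% in the saline libraries, Rims1 30.4% and 53.7 ± 4.0%, and Rims3 2.37% and 15.1 ± 5.2%. Rims4 rested on 27 input counts and its ratios had both signs (0.24 ± 0.90). The large scaffolds were both lower in mean: Bsn was at 165, 303 and 267 CPM against 396 CPM (-0.74 ± 0.46), and Pclo at 165, 227 and 209 CPM against 640 CPM (-1.69 ± 0.24).

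**Figure D2:**
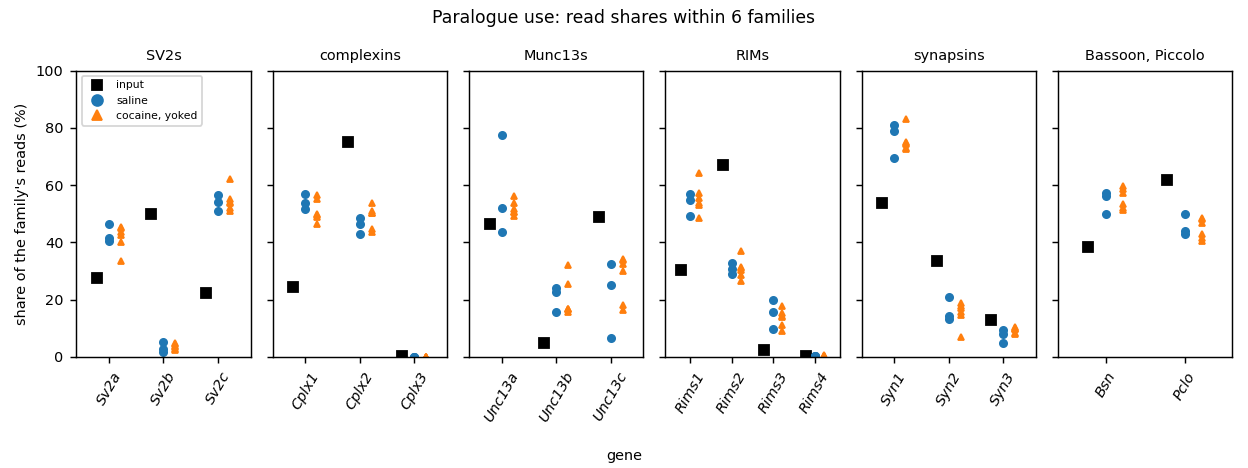
Share of each family's reads taken by each gene, in percent, in the input (black square), the 3 saline immunopurified libraries (circles) and the 3 cocaine and 3 yoked immunopurified libraries (triangles). Sv2b is at 49.96% in the input and between 1.70% and 5.25% in the 9 immunopurified libraries, and Cplx1 is at 24.5% in the input with a saline mean of 54.1%.

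In the wider pathway, 90 of the 99 other release and recycling genes were measured; 15 (16.7%) were at least 2-fold higher than input in all 3 saline libraries and 14 (15.6%) lower, beside 12.2% and 23.1% of all measured genes, with a median log2 ratio of 0.04. Among genes reaching 100 counts in the input or the mean saline library, the 4 highest were Sncg (5.52 ± 1.02), Rab3b (3.19 ± 0.14), Sncb (2.37 ± 0.11) and Syngr3 (1.99 ± 0.15). Rab3b, a vesicle GTPase that binds RIM, was at 805, 845 and 965 CPM against 95.2 CPM, far above the input in each library. Sncg, gamma-synuclein, was at 6.79, 16.6 and 27.4 CPM against 0.318 CPM, a level that rests on 13 input counts. The 4 lowest were Syngr2 (-3.66 ± 0.37), Syt16 (-3.46 ± 0.19), Sytl5 (-3.38 ± 0.91) and Vamp8 (-2.92 ± 0.51). Of 10 measured vesicle membrane genes, 4 were higher (Syngr1, Syngr3, Svop and Tprgl) and 3 lower (Sypl, Synpr and Syngr2), and of 17 active zone genes 3 were higher (Ppfia4, Rab3a and Rab3b) and Rab3c was lower. For the SNAREs and SM proteins beyond the 43, 1 of 17 was higher and 4 were lower; for endocytosis 6 of 34 were higher and 2 lower. These small lists are given as counts, and the shares of all genes stated above apply to each.

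The treatment comparisons ask whether the cholinergic ribosome load of these genes differed between self-administered cocaine, self-administered saline and the yoked control. It did not pass the test for any of them. In edgeR's quasi-likelihood test on all 9 immunopurified libraries, 0 of the 43 genes and 0.0% of all 14989 genes tested had an adjusted p under 0.05 in any of the 3 pairwise comparisons or for any difference among the 3 groups; the smallest adjusted p was 0.850 for cocaine minus saline, 0.9997 for cocaine minus yoked and 0.999 for yoked minus saline. DESeq2 also called 0 genes in each. At an unadjusted p under 0.05, 791, 391 and 327 of all genes passed in the same order and 419 for any difference.

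The median log2 fold change of the 43 genes was 0.02 with cocaine minus saline, 0.05 with cocaine minus yoked and -0.04 with yoked minus saline, beside 0.005, 0.001 and -0.01 for all genes tested. The 95% interval of a gene's log2 fold change had a median half-width of 0.57, 0.57 and 0.56, about 1.48-fold, and it lay within 2-fold on both sides for 29, 31 and 33 of the 43 genes. For those genes a 2-fold change lay outside the interval; for the others, among them Syt10, Syt17, Rims4 and Cplx3, the interval reached past 2-fold on at least 1 side. The 3 comparisons share libraries, so their values are not independent of each other.

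For cocaine against saline, Syn3 and Cplx2 had an unadjusted p under 0.05, both higher with cocaine. That is 2 of 43 genes (4.65%), where 2.76% of all genes were higher and 2.52% lower at that threshold and none of the 43 was lower. Syn3 was at 58.7, 107 and 48.6 CPM in cocaine libraries 1 to 3 and at 48.3, 25.9 and 42.2 CPM in the saline libraries. On CPM of library totals the groups did not overlap, by a margin of 48.6 over 48.3 CPM, with 3 of 3 cocaine libraries above any saline library. The 48.6 and 48.3 CPM were in cocaine library 3 and saline library 1. With their TMM factors of 1.018 and 1.009 the order of these 2 libraries was reversed, so the groups overlapped on the scale of the edgeR test. The highest and lowest values were both in libraries numbered 2. The log2 fold change was 0.91 (SE 0.30, adjusted p = 0.850 in edgeR). It was 0.46 without cocaine library 2, 0.69 without saline library 2 and 0.23 without the 3 libraries numbered 2. Without the filter on low counts, edgeR called Syn3 (adjusted p = 0.0080), 1 of the 43 genes beside 60 of all 22641 genes tested. At an unadjusted p under 0.05 that setting gave 8 of the 43 genes, beside 1690 of the 22641. It was the only setting in which any of the 43 genes was called.

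Cplx2 was at 864, 1308 and 770 CPM with cocaine and at 804, 672 and 730 CPM with saline, so the groups overlapped. Its log2 fold change of 0.44 (SE 0.20, adjusted p = 0.850 in edgeR) was 0.15 without cocaine library 2 and 0.08 without the libraries numbered 2. The gene with the next smallest p, Syt5, a calcium sensor also found on dense-core vesicles, was at 50.6, 64.5 and 51.2 CPM with cocaine and at 43.8, 44.9 and 42.0 CPM with saline. Its groups did not overlap, the log2 fold change was 0.37 (SE 0.19, adjusted p = 0.850 in edgeR), and it was 0.23 without cocaine library 2. On CPM of library totals, groups that do not overlap, with cocaine higher, were found for Syn3 and Syt5 alone among the 43 genes, 4.65% beside 4.88% of all genes. Of the 89 other release genes tested, the 2 with the smallest p were Rab27a, a GTPase of secretory granules, at log2 -0.76 (SE 0.33), and the SNARE-associated Snapin at 0.36 (SE 0.16), both with adjusted p = 0.850 in edgeR. Rab27a was at 6.97, 7.83 and 8.04 CPM with cocaine and at 9.84, 19.6 and 9.83 CPM with saline; without saline library 2 its log2 fold change was -0.36. For Snapin the values were 311, 303 and 308 CPM against 269, 194 and 263 CPM, and without saline library 2 the log2 fold change was 0.21.

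**Figure D3:**
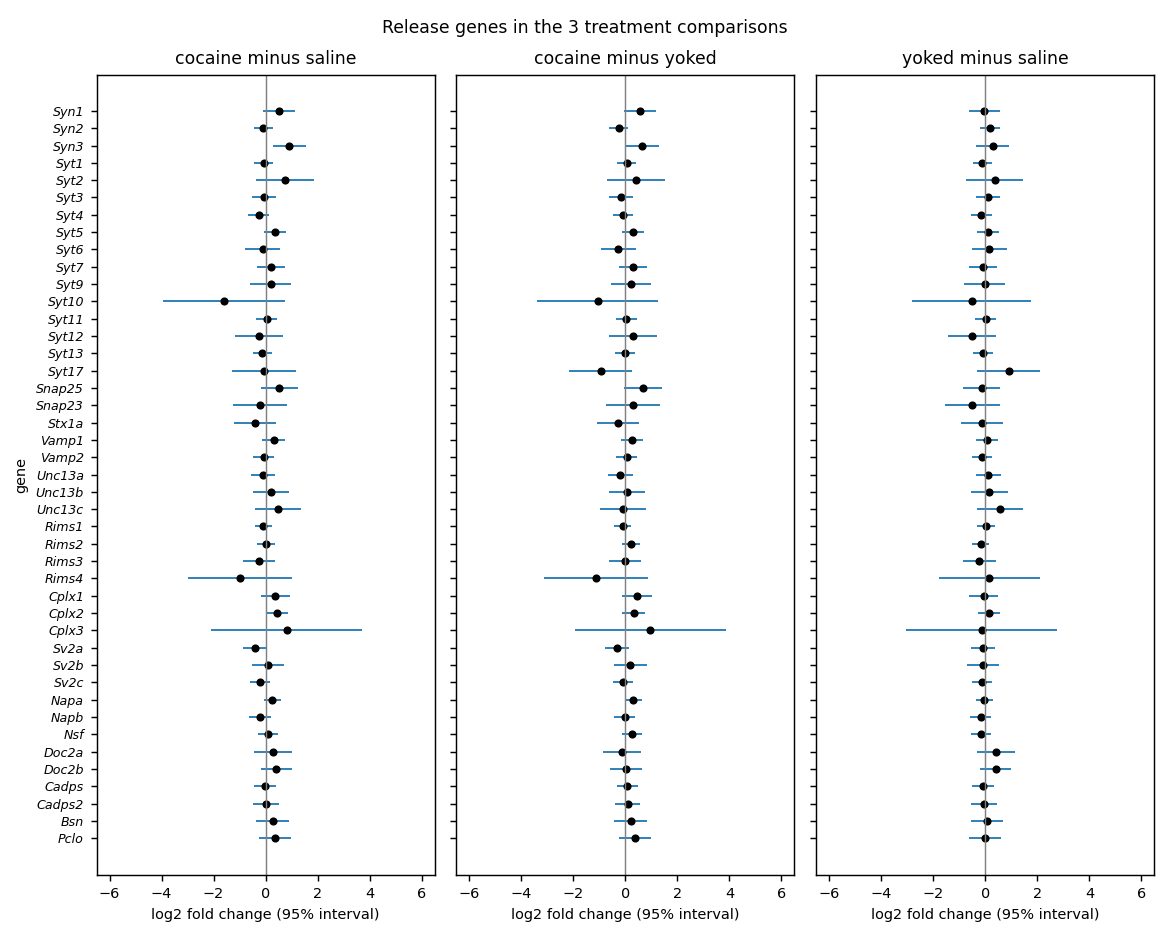
Log2 fold change (points) with its 95% interval (lines) for each of the 43 genes, for cocaine minus saline, cocaine minus yoked and yoked minus saline. Most intervals include 0; those of Syn3 and Cplx2 for cocaine minus saline and of Syn3 for cocaine minus yoked do not, and no gene passed the adjusted threshold.

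For cocaine against yoked, the pair of groups run on the same lane, 1 of the 43 genes had an unadjusted p under 0.05, again Syn3 and higher with cocaine (2.33%, beside 1.63% of all genes higher and 0.974% lower). Syn3 was at 50.6, 47.7 and 44.4 CPM in the yoked libraries, which overlapped the cocaine libraries, and its log2 fold change was 0.64 (SE 0.29, adjusted p = 0.9997 in edgeR) with cocaine library 2 and 0.18 without it. Snap25 was at 12683, 28112 and 9036 CPM with cocaine and at 10585, 13601 and 8405 CPM in the yoked libraries. Its log2 fold change of 0.68 (SE 0.33, adjusted p = 0.9997 in edgeR) was 0.02 without cocaine library 2. Syn1 was at 429, 918 and 364 CPM with cocaine and at 377, 441 and 396 CPM in the yoked libraries; its log2 fold change of 0.55 (SE 0.28, adjusted p = 0.9997 in edgeR) became -0.01 without that library. Between same-numbered libraries, Snap25 and Syn3 were higher with cocaine in 3 of 3 pairs and Syn1 in 2 of 3. Without the 3 libraries numbered 2 the log2 fold changes were 0.17 for Snap25, 0.15 for Syn3 and 0.01 for Syn1, and with the replicate block 0.55, 0.61 and 0.44 (adjusted p = 0.933 for each in edgeR). Of the other release genes, Rph3a, a Rab3 effector, differed by 0.53 on the log2 scale (SE 0.23) and the endocytic scaffold Itsn2 by 0.50 (SE 0.23), both with adjusted p = 0.9997 in edgeR. Rph3a was at 485, 905 and 484 CPM with cocaine and at 411, 500.3 and 434 CPM in the yoked libraries, and without cocaine library 2 its value was 0.13. Itsn2 was at 51.1, 83.4 and 68.1 CPM against 48.3, 37.0 and 61.7 CPM, and its value was 0.28 without cocaine library 2.

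Between yoked and saline, 0 of the 43 genes had an unadjusted p under 0.05, beside 1.38% of all genes higher and 0.801% lower. The smallest p values belonged to Syt17, Doc2b and Unc13c. Syt17, a synaptotagmin without a membrane anchor, was at 3.64, 9.29 and 15.7 CPM in the yoked libraries and at 3.749, 3.09 and 8.15 CPM with saline (log2 fold change 0.90, SE 0.57), and 0.30 without yoked library 3. Doc2b was at 43.2, 55.6 and 94.996 CPM against 46.9, 35.7 and 62.1 CPM (0.40, SE 0.28), and -0.01 without yoked library 3. For Unc13c the values were 45.3, 40.1 and 63.6 CPM against 47.8, 10.9 and 40.6 CPM (0.57, SE 0.42), and 0.15 without saline library 2. All 3 pairs of groups overlapped. The 2 other release genes were Baiap3, a Munc13 relative, at 3.20, 0.198 and 3.35 CPM against 0.0781, 0.0318 and 0.404 CPM, groups that overlapped at this low level, and Rab27a at 10.5, 7.41 and 6.62 CPM against 9.84, 19.6 and 9.83 CPM (log2 fold change -0.68, SE 0.33), which was -0.28 without saline library 2. Both had adjusted p = 0.999 in edgeR.

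With the replicate number as a block, 0 genes were called in each comparison. At an unadjusted p under 0.05 the block gave 2 of the 43 genes between cocaine and saline (Syn3 and Syt4), or 4.65% beside 6.45% of all genes. It gave 3 between cocaine and yoked (Syt17, Snap25 and Napa), or 6.98% beside 2.99%, and 2 between yoked and saline (Syt17 and Unc13c), or 4.65% beside 2.66%.

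Cocaine library 2 set much of the spread among the 9 libraries. Snap25 made up 2.81% of its gene counts, against 0.841% to 1.36% in the other 8, and without Snap25 the list took 1.94% of its counts, against 1.42% to 1.87% in the others. The excess was not shared by the whole list: Syn1 was 2.04 times, Syn3 1.83 times, Pclo 1.78 times, Cplx1 1.70 times and Cplx2 1.51 times the highest of the other 8 libraries, Snap25 2.07 times, whereas Vamp2, at 5977 CPM, lay within the others' 4633 to 6964 CPM, and Syt1, at 2408 CPM, within 1837 to 2570 CPM. The same library was the lowest of the 9 for 5 of the 43 genes (Syt6, Stx1a, Rims1, Rims4 and Sv2a), 11.6% of the list beside 24.8% of all genes. Sv2a was at 273 CPM there, under the 349.9 to 624 CPM of the other 8, and Rims1 at 114 CPM, under their 140.2 to 169 CPM. Its cholinergic markers summed to 4771 CPM, within the 4349 to 5702 CPM of the others, and its spiny markers to 1207 CPM, within 1143 to 2030 CPM. Over the 37 genes with a median of at least 5 CPM, the median coefficient of variation across libraries was 22.8% with cocaine library 2 and 17.2% without it, beside 19.9% and 17.4% for all genes of that level.

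**Figure D4:**
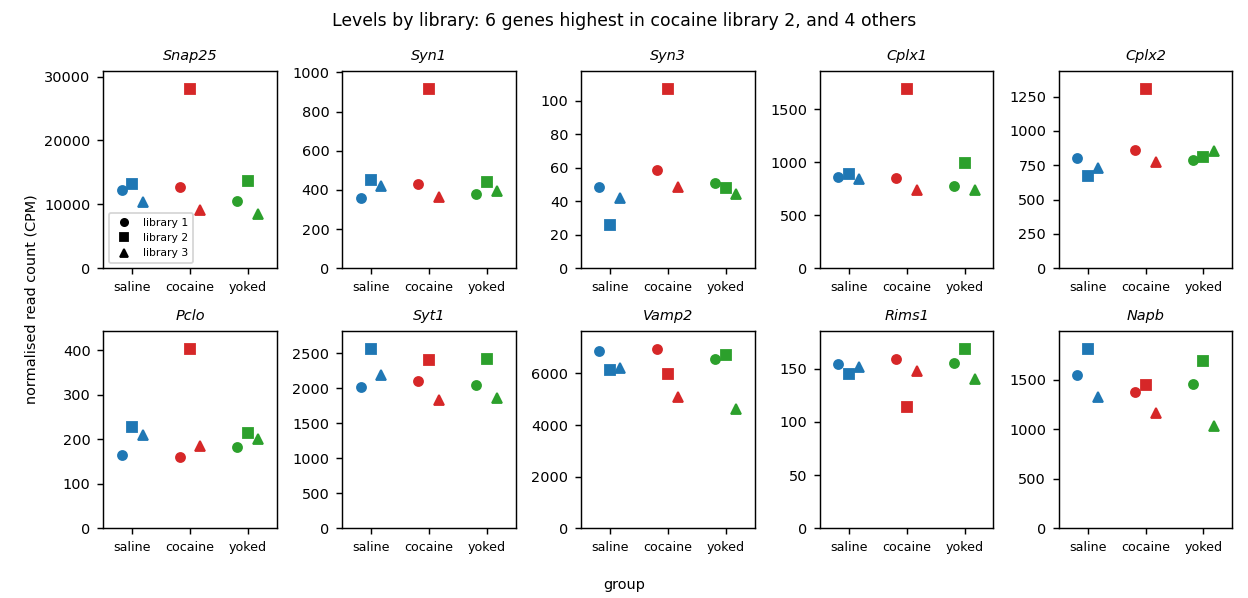
Normalised read count (CPM, vertical axes from 0) of 10 genes in each saline, cocaine and yoked immunopurified library, with the shape giving the library number. In Snap25, Syn1, Syn3, Cplx1, Cplx2 and Pclo the cocaine library numbered 2 stands above the other 8, and in Syt1, Vamp2, Rims1 and Napb it does not.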

How the data were processed

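Whole striatum of Chat-TRAP DW167 mice was sequenced as 9 immunopurified libraries and 1 input. Each library has 1 deposited table of whole-number read counts by gene symbol, which the authors left without normalisation. The submitters' processing notes name STAR 2.0.0e, HTSeq and mm10. The annotation and strand setting are not given in the sources used here. Reads without a gene were left out of library totals. Of uniquely mapped reads, between 14.1% and 21.7% per immunopurified library lay in no annotated gene, against 23.6% in the input. Ambiguous reads were between 2.27% and 2.89% per immunopurified library, against 6.95% in the input. What this difference did to the ratios to input was not tested. Records set aside as not uniquely aligned made up between 35.4% and 57.1% of all records per library. They were 35.4% in the input, 36.4% in saline library 2, 36.3% in yoked library 2 and 56.2% in cocaine library 2. Gene counts per library ranged from 24526800 to 75220900. Reads carry no molecular identifiers, so Poisson intervals (95%) and the limit of 3 counts for a count of 0 cover counting error only.

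Against the input, CPM used library totals, genes needed at least 20 counts in the input or in the mean saline library, and a call needed 2-fold in all 3 saline libraries. Transcript lengths were not in the reference tables, so paralogue shares are of reads not divided by length. Treatments were compared with edgeR 4.0.16 in R 4.3.3 (TMM scaling, filter at a minimum count of 10 and minimum total of 15, robust quasi-likelihood fit over 9 libraries, 6 residual degrees of freedom, Benjamini-Hochberg adjustment over 14989 genes, threshold 0.05). Alternatives were DESeq2 1.42.0, RLE scaling, other filters, the replicate block, the 2 groups alone and libraries left out. Both sets of scripts were tested on simulated data.

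Libraries of the same replicate number deviated alike, if weakly, in every pair of groups. Their deviations from group means correlated at 0.110, 0.107 and 0.154 for cocaine and yoked and at 0.159, 0.177 and 0.130 for saline and yoked. For saline and cocaine they correlated at 0.107, 0.102 and 0.078. Libraries of different numbers correlated between -0.155 (saline 1 and yoked 2) and 0.057 (saline 1 and yoked 3). Deviations within a group cancel out by construction, so positive values for same-numbered libraries partly force negative ones for the others. The main fit left the replicate number out, and the replicate block took it up. The genes and lists were chosen with earlier results of these data known. Against the input, the highest and lowest member of each family and Stx1a are given with values in the saline libraries and the input. Further members are described beside them, and the 4 highest and 4 lowest other release genes are named with their ratios. For treatments, the members with unadjusted p under 0.05 (at least the 3 smallest p) are named with values in the groups compared. The same holds for the 2 other release genes with the smallest p. The genes that set cocaine library 2 apart were named after their values were seen.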

Additional observations from a re-analysis of the deposited data

How the results depend on the processing

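No call among the 43 genes appeared in a treatment comparison under RLE scaling, DESeq2, a filter at 5 CPM, the replicate block, the 2 groups alone or with any library left out. Without a filter on low counts, edgeR tested 22641 genes. It called 60 between cocaine and saline, 27 between cocaine and yoked, 18 between yoked and saline and 98 for any difference. Of the 43, 1 (Syn3) was in the first and last, and the cause was not tested. The replicate block changed no call. Without cocaine library 2 the log2 fold change of Syn1 for cocaine against yoked was -0.0136, and with each library left out in turn it ran up to 0.81; that of Doc2b between yoked and saline ran from -0.0056 without yoked library 3 to 0.65.

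Against the input, centring on the median of all genes gave 7 higher genes, 9 lower and a list median of 0.0783 in place of -0.12; Sv2a, Unc13b and Cadps joined the higher genes, and Syn3 and Stx1a left the lower. TMM scaling gave 5 higher and 11 lower. At 4-fold, 0 genes were higher, 5 were lower and 5 families passed. With saline libraries left out in turn, 4 to 6 genes were higher, 12 to 13 lower, 8 to 10 families passed and the list median ran from -0.26 to -0.17. The 9 immunopurified libraries gave 4 higher and 8 lower, and 9 lower without cocaine library 2, a setting added after seeing the data. No called gene changed direction. Small ratios of Syn1, Doc2a, Cadps2 and Rims4 changed sign between settings. Depth limits Rims4, Cplx3 and Syt10 most. The share per transcript length was not run.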
